A study of Mus musculus with 16 samples.

Results

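A set of 10 genes that mark the entry into the B cell lineage and the assembly of the precursor B cell receptor (pre-BCR) were followed in every RNA-seq library of the series: Ebf1, Pax5, Pou2af1, Igll1, Vpreb1, Vpreb2, Vpreb3, Cd79a, Cd79b and Blnk. They were taken by name from a list and not ranked by their values, but earlier results of these data were known when they were chosen. They make up 10 of the 47937 gene identifiers in the count tables. The libraries came from MPP3 cells (LSK CD150- CD48+), a myeloid-biased multipotent progenitor, and MPP4 cells (the same gate with Flt3+), a lymphoid-biased one, sorted from bone marrow of C57BL/6 mice. There were 4 groups of 4 libraries: MPP3 WT, MPP3 KO, MPP4 WT and MPP4 KO, from 8 mice that each gave an MPP3 and an MPP4 library. By the sample labels, WT mice carried Ebf1fl/fl Tie2Cre+/+, that is floxed Ebf1 alleles and no Cre, and KO mice carried Ebf1fl/fl Tie2Cre +/cre. The design text of the series instead gives Tie2Cre to both genotypes and the floxed allele to 1 of them, so differences between KO and WT due to the alleles and due to the transgene cannot be told apart. The Tie2 (Tek) promoter is active in stem cells of the blood and in vessel-lining cells, so Cre is not limited to the sorted cells. The WT mice were aged 12, 11, 12 and 11 weeks (mice 1 to 4) and the KO mice 10, 9, 11 and 11 weeks. WT mice 1 and 2 were female and 3 and 4 male, and the KO mice were the reverse.

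The early B cell program is built by transcription factors that act in sequence. EBF1 opens and activates B-lymphoid enhancers, PAX5 fixes commitment to the lineage, and POU2AF1 (OCA-B) is a coactivator of the octamer-binding POU factors. The genes that follow encode the pre-BCR: Igll1 (lambda 5) and Vpreb1 and Vpreb2 encode the surrogate light chain that pairs with the immunoglobulin mu heavy chain, and Vpreb3 encodes a related protein of B cell precursors. Cd79a and Cd79b encode Ig-alpha and Ig-beta, the signalling chains of the receptor, and Blnk encodes the adaptor that links the kinase SYK to downstream enzymes. In bone marrow these genes are known as markers of the steps from lymphoid progenitors to pro-B and pre-B cells.

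Promoter windows of 9 of the 10 genes were found in a RefSeq table (build GRCm38.p6, 250 bases before to 50 bases after each start), with 2 windows for Ebf1. Those of 4 of the genes with lower mean levels in the KO libraries of both populations and of Blnk, which had a higher level in MPP4 KO libraries, are printed 5′ to 3′ to show the sequence from which each transcript starts. Capitals mark 3 motifs searched on both strands: the core of the EBF1 palindrome (CCCNNGGG), the EBF1 site known from the Cd79a (mb-1) promoter (TCAAGGGA) and the octamer bound by POU factors (ATGCAAAT, which reads ATTTGCAT on the other strand).
Cd79a (chr7:24897247-24897546, plus strand): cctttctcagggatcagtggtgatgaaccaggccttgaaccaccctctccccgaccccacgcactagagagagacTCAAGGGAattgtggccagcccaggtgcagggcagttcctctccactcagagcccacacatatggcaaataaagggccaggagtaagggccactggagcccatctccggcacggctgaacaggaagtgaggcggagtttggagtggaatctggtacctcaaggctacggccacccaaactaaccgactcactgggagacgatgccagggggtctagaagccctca
Pou2af1 (chr9:51213440-51213739, plus strand): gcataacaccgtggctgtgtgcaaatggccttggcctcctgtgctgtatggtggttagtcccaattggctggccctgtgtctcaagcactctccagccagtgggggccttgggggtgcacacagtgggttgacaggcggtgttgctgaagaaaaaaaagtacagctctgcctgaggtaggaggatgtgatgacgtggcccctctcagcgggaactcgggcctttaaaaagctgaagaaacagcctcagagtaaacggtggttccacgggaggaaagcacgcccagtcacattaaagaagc
Igll1 (chr16:16863936-16864235, minus strand): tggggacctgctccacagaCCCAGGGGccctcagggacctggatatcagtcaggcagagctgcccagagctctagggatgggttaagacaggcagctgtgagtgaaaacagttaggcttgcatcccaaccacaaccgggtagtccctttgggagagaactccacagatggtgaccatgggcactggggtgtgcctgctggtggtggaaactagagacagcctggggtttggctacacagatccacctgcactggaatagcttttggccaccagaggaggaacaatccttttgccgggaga
Vpreb3 (chr10:75948050-75948349, plus strand): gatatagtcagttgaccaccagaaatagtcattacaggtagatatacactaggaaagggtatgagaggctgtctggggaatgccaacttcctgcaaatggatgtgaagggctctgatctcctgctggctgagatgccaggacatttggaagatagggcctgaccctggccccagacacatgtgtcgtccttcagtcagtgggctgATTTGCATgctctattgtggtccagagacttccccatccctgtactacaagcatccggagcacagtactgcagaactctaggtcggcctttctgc
Blnk (chr19:40994172-40994471, minus strand): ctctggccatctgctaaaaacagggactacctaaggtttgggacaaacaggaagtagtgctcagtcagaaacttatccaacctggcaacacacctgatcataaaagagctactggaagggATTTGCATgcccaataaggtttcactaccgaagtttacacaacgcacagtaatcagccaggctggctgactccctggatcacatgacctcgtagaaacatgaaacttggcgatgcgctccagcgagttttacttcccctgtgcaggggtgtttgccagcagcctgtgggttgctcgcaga

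The Cd79a window held TCAAGGGA with its first base at position -175 from the start, the Igll1 window held CCCAGGGG at -231, and the Vpreb3 and Blnk windows held the octamer at -45 and -130. The windows of Pou2af1, Ebf1, Pax5, Vpreb1 and Vpreb2 held none of these letters. Over 32817 promoter windows of the same length, CCCNNGGG was present in 13.7%, TCAAGGGA in 1.01% and the octamer in 1.74%. The short E-box (CANNTG), bound by E proteins, was present in at least 1 window of each of the 9 genes and in 72.3% of all windows. These are matches of letters only. Binding was not measured, and the part of any match in the transcript levels was not tested.

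The deposited values were raw read counts, with totals between 24823708 and 48703193 per library. Levels are given as CPM, counts scaled to the library total after TMM normalisation, and 3 counts, the limit that a count of 0 allows, corresponded to between 0.062 and 0.116 CPM. That limit covers counting error only. Of the 10 genes, 4 (Ebf1, Cd79a, Cd79b and Blnk) passed the filter used in the study, a mean above 100 counts in any group, and all 10 were tested here among 22281 genes with at least 10 counts in total. The libraries labelled KO did not form a uniform group for these genes. In the MPP3 KO libraries, mouse KO3 held all 9 counts of Pax5, the only count of Pou2af1, 68.0% of the Vpreb3 counts, 70.6% of the Ebf1 counts and 52.1% of the Cd79a counts, so the main values are given with and without its 2 libraries. Leaving out mouse KO3 was chosen after these counts were seen. It removes KO counts of the same genes, so a larger fall without that mouse follows in part from the choice. Marker lists of other cells are described after the genes themselves. In bulk libraries, fewer cells of a type and less RNA per cell cannot be told apart.

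**Figure D1:**
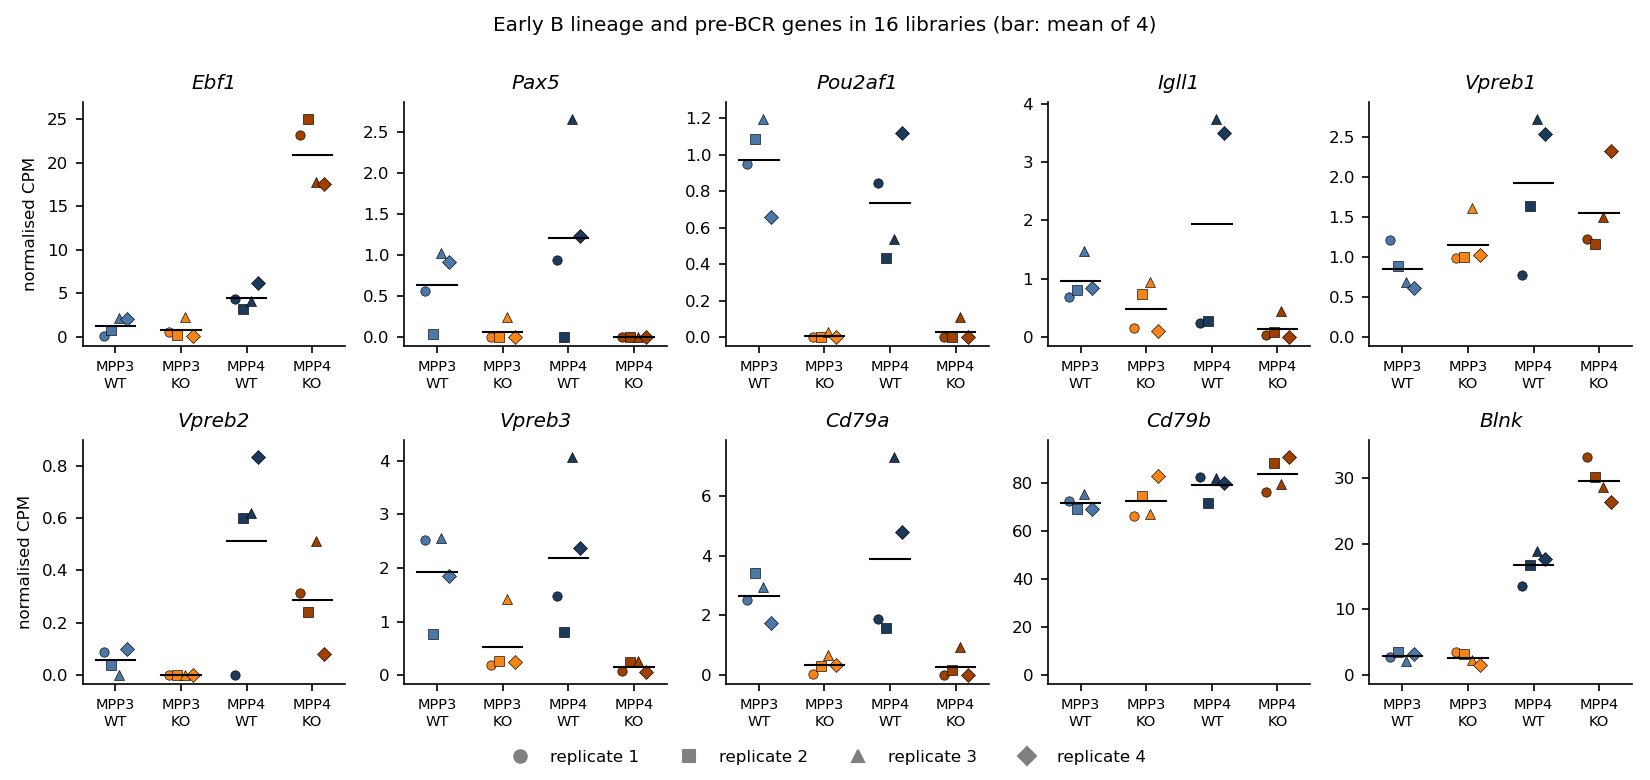
Normalised CPM (vertical axes, linear and with a separate scale for each gene) of the 10 genes in the 16 libraries, by group, with the symbol giving the replicate number and the bar the mean of 4. Pou2af1 and Cd79a separated WT from KO libraries in both populations, Ebf1 and Blnk were highest in MPP4 KO libraries, and Cd79b lay between 66.0 and 90.7 CPM in all of them.

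Ebf1 (ENSMUSG00000057098, chromosome 11, 44617317 to 45008091), the targeted gene, was read first. It had 5, 21, 91 and 82 counts in the WT libraries of MPP3 and 23, 6, 84 and 6 in the KO libraries, while in MPP4 WT libraries held 187, 98, 199 and 263 and KO libraries 817, 928, 488 and 642. The KO libraries thus overlapped the WT libraries in MPP3 and all lay above them in MPP4, against the direction that the label of a knockout would give. Counts per gene take in all exons and do not show which of them a transcript held, so they do not check the labels. Directions below are those between libraries labelled KO and libraries labelled WT. An antisense gene, Gm12158, lies within Ebf1 without sharing exons and had 96 counts over all libraries. The mean level of Ebf1 was 4.5 ± 1.26 CPM (SD, n = 4) in MPP4 WT and 20.9 ± 3.79 CPM in MPP4 KO, 4.65-fold higher. The log2 fold change was 2.21 ± 0.64 and did not pass the threshold in the fit of all 16 libraries (edgeR FDR 0.318), while it passed when the 8 MPP4 libraries were fitted alone (FDR 0.0081). In MPP3 the levels were 1.30 ± 0.989 CPM in WT and 0.80 ± 0.988 CPM in KO, within the spread of the libraries (log2 fold change -0.71 ± 0.69, edgeR FDR 0.860). Without mouse KO3 that value was -2.04 ± 0.68 (FDR 0.696).

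Pax5 (ENSMUSG00000014030, chromosome 4, 44524757 to 44710487) had 19, 1, 43 and 36 counts in WT libraries of MPP3 against 0, 0, 9 and 0 in KO libraries. In MPP4 it had 40, 0, 129 and 52 counts in WT and no count in any of the 4 KO libraries. The groups overlapped in both populations because of the 1 and 0 counts in the WT libraries of mouse WT2. In MPP3 the mean was 0.0603 ± 0.121 CPM in KO against 0.636 ± 0.444 CPM in WT (log2 fold change -3.32 ± 1.45, edgeR FDR 0.582). Without mouse KO3 no count of Pax5 was left in MPP3 KO, and the difference did not pass either (FDR 0.608). In MPP4 it was at least 13.5-fold lower in KO, with 3 counts per library taken as the limit in KO (edgeR FDR 0.286). That bound was 8.1-fold without mouse WT3, which held 129 of the 221 counts, and up to 18-fold without another WT library. Neither difference passed the threshold. The only other genes with exons inside those of Pax5 had 0 and 30 counts in all libraries together.

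Pou2af1 (ENSMUSG00000032053, chromosome 9, 51213708 to 51240080) separated the groups in both populations. It had 32, 28, 50 and 26 counts in WT libraries of MPP3 against 0, 0, 1 and 0 in KO libraries, and 36, 13, 26 and 47 counts in WT libraries of MPP4 against 0, 0, 3 and 0 in KO libraries. No KO library reached any WT library, and all of the counts in KO came from mouse KO3. The WT levels were 0.973 ± 0.232 CPM in MPP3 and 0.733 ± 0.310 CPM in MPP4 (SD, n = 4). Taken over the summed counts, WT exceeded KO 141-fold in MPP3, with a counting interval of 24.8 to 5600, and 33.9-fold in MPP4, with an interval of 11.3 to 167. These intervals cover counting error only, not the spread between mice, and the KO side lies at or under 3 counts in every library, so the size of the ratio is poorly fixed. Pou2af1 fell in MPP3 (edgeR FDR 0.0665) and missed the threshold in MPP4 (FDR 0.182). The MPP3 call was lost in some other fits (FDR up to 0.317 with age as a term), while the log2 fold change stayed between -8.19 and -5.88 over these alternatives, against -6.57 ± 1.09. It was also lost without the MPP3 library of mouse KO3 (FDR 0.117), and held without both libraries of that mouse (FDR 0.0444), where the FDR in MPP4 was 0.102.

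Igll1 (ENSMUSG00000075370, chromosome 16, 16860671 to 16863985), the constant-region-like part of the surrogate light chain, varied widely among WT mice. It had 23, 21, 62 and 33 counts in the WT libraries of MPP3 and 6, 22, 35 and 4 in the KO libraries, while in MPP4 WT libraries held 10, 8, 181 and 147 and KO libraries 1, 3, 12 and 0. In MPP4 the WT libraries fell into a low pair, from the female mice, and a high pair, from the male mice. The 12 counts of mouse KO3, a female, lay above the low pair. The mean was 14.1-fold lower in MPP4 KO (1.93 ± 1.95 against 0.137 ± 0.204 CPM, log2 fold change -3.87 ± 1.13), which did not pass the threshold (edgeR FDR 0.321). Without mouse KO3 it was -5.59 ± 1.29 (FDR 0.236). In MPP3 the difference was within its error (-0.99 ± 0.99), and -1.55 ± 1.00 without mouse KO3 (FDR 0.801).

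Vpreb1 (ENSMUSG00000059305, chromosome 16, 16868403 to 16870843) and Vpreb2 (ENSMUSG00000059280, chromosome 16, 17980428 to 17981273) are close paralogs, and their counts are uncertain. Of the 100-base windows of the Vpreb2 transcripts, 14.7% are also found in those of Vpreb1, and reads from these windows could belong to either gene. In addition 9.01% of the exon bases of Vpreb1 lie in exons of Top3b, a protein-coding gene on the other strand with 79567 counts in all, and whether strand was used in counting is not stated. Vpreb1 had 41, 23, 29 and 24 counts in the WT libraries of MPP3 and 38, 30, 60 and 41 in the KO libraries, while in MPP4 WT libraries held 33, 49, 132 and 107 and KO libraries 43, 43, 41 and 85. KO and WT overlapped in both populations, with log2 fold changes of 0.44 ± 0.41 in MPP3 and -0.31 ± 0.40 in MPP4. Top3b itself differed by 0.01 ± 0.09 and -0.06 ± 0.09. Vpreb2 had 3, 1, 0 and 4 counts in MPP3 WT and none in MPP3 KO, where both groups lay at the counting limit. In MPP4 it had 0, 18, 30 and 35 counts in WT and 11, 9, 14 and 3 in KO, and the groups overlapped (-0.84 ± 1.09).

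Vpreb3 (ENSMUSG00000000903, chromosome 10, 75943057 to 75949657) had 85, 20, 107 and 73 counts in the WT libraries of MPP3 and 7, 8, 53 and 10 in the KO libraries, while in MPP4 WT libraries held 63, 24, 197 and 100 and KO libraries 3, 9, 7 and 2. All MPP4 KO libraries lay below all MPP4 WT libraries, and in MPP3 only mouse KO3 reached into the WT range. The mean was 13.7-fold lower in MPP4 KO (2.18 ± 1.42 against 0.160 ± 0.104 CPM, log2 fold change -3.77 ± 0.77, edgeR FDR 0.182) and 3.64-fold lower in MPP3 KO (-1.86 ± 0.69, FDR 0.521). Without mouse KO3 the MPP3 value was -3.04 ± 0.66 (FDR 0.305).

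Cd79a (ENSMUSG00000003379, chromosome 7, 24897381 to 24902197) and Cd79b (ENSMUSG00000040592, chromosome 11, 106311341 to 106314762) encode partner chains of 1 receptor, and their counts differed in size and in pattern. Cd79a had 85, 88, 123 and 69 counts in the WT libraries of MPP3 and 1, 9, 25 and 13 in the KO libraries, while in MPP4 WT libraries held 81, 47, 354 and 202 and KO libraries 0, 6, 26 and 0. The KO libraries lay below the WT libraries in both populations, with mouse KO3 the highest of them each time. The mean was 8.04-fold lower in MPP3 KO (log2 fold change -2.99 ± 0.97, edgeR FDR 0.470) and 14-fold lower in MPP4 KO (-3.87 ± 1.02, FDR 0.291). Without mouse KO3 the values were -3.60 ± 0.88 (FDR 0.475) and -6.06 ± 1.04 (FDR 0.109).

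Cd79b had between 1786 and 3153 counts in the MPP3 WT libraries, 2234 to 3301 in MPP3 KO, 2143 to 3973 in MPP4 WT and 2174 to 3311 in MPP4 KO. Its mean levels were 71.5 ± 3.00, 72.5 ± 7.88, 78.9 ± 5.07 and 83.6 ± 6.89 CPM (SD, n = 4) in the same order, and KO overlapped WT in both populations. The log2 fold changes of KO against WT were 0.02 ± 0.09 in MPP3 and 0.08 ± 0.09 in MPP4. It was the most abundant of the 10 genes in every group.

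Blnk (ENSMUSG00000061132, chromosome 19, 40928927 to 40994535) had 92, 92, 91 and 126 counts in the WT libraries of MPP3 and 133, 96, 84 and 62 in the KO libraries, while in MPP4 WT libraries held 579, 501, 917 and 747 and KO libraries 1167, 1117, 784 and 964. Once normalised for library size, all MPP4 KO libraries (26.4 to 33.2 CPM) lay above all MPP4 WT libraries (13.6 to 18.9 CPM). The mean was 1.77-fold higher in MPP4 KO, a log2 fold change of 0.82 ± 0.21 that did not pass the threshold (edgeR FDR 0.269). In MPP3 the groups overlapped (-0.16 ± 0.22).

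Across the 10 genes, KO was set against WT in MPP3, which asked how transcripts of the early B program stand in myeloid-biased progenitors after targeting of Ebf1. EdgeR called 1 of them, Pou2af1, which was lower. Over all 22281 genes tested the share called was 0.0269% (6 genes). Of the 10 genes, 5, Pou2af1 included, had an unadjusted p-value under 0.05, all with lower levels in KO, where 8.41% of all genes had such a p-value. They were Pax5, Pou2af1, Vpreb3, Cd79a and Vpreb2, the last of which rested on 8 counts against none and lay at the counting limit. Groups that did not overlap were seen for 2 genes with lower levels in KO (Pou2af1 and Cd79a), against 1.62% of all genes, and for none with higher levels, against 1.8%. The median log2 fold change was -0.99 over the 9 genes above the counting limit, against 0.00 over all genes.

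In MPP4 the same comparison called none of the 10 genes by edgeR, where the share over all genes was 0.00898% (2 genes). An unadjusted p-value under 0.05 was found for 7 of the 10 genes and for 9.37% of all genes. Of the 7, Pax5, Pou2af1, Igll1, Vpreb3 and Cd79a were lower in KO, and Ebf1 and Blnk were higher. Groups did not overlap for 3 genes with lower levels in KO (Pou2af1, Vpreb3 and Cd79a), against 3.05% of all genes, and for 2 with higher levels (Ebf1 and Blnk), against 1.86%. The median was -2.30 over the 10 genes, with Pax5 at its bound, and -0.01 over all genes. The study itself used DESeq2, at the same FDR threshold and with its own filter. The DESeq2 Wald test on the counts tested here called 6 of the 10: Pax5, Pou2af1, Igll1, Vpreb3 and Cd79a lower and Blnk higher, among 370 genes in all. In MPP3 DESeq2 called Pou2af1 and Cd79a, both lower, among 214 genes.

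**Figure D2:**
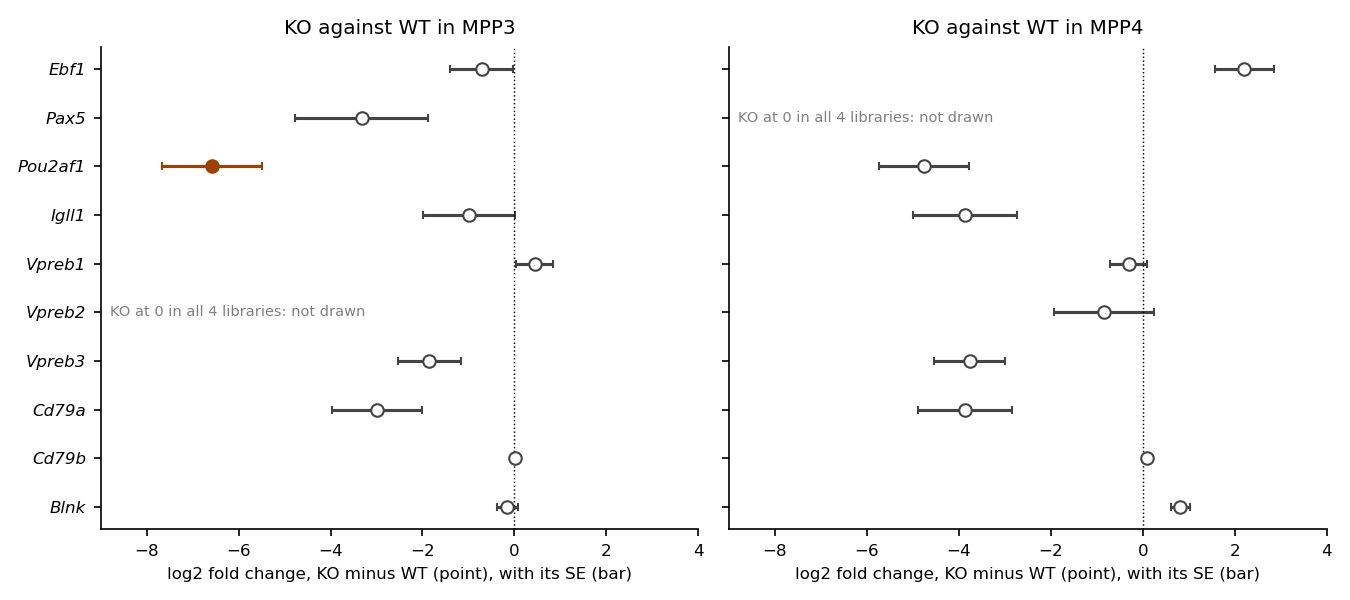
Log2 fold change of KO against WT (horizontal axis, KO minus WT) from the edgeR fit of 16 libraries, with its standard error, for the 10 genes in MPP3 (left) and MPP4 (right), with genes not drawn where all 4 KO libraries were at 0. The filled point marks the call, Pou2af1 in MPP3, and the bars of Cd79a, Vpreb3 and Pou2af1 lie below 0 in both populations while those of Ebf1 and Blnk lie above 0 in MPP4.

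The comparison of MPP4 with MPP3 in WT asked how the same genes stand in the lymphoid-biased against the myeloid-biased progenitor. It called Blnk, which rose from 2.92 ± 0.60 CPM in MPP3 to 16.8 ± 2.31 CPM in MPP4 (log2 fold change 2.53 ± 0.22, edgeR FDR 1.51e-06), where 7.18% of all genes were called. MPP4 exceeded MPP3 for Blnk in each of the 4 WT mice, by 4.69-fold to 8.70-fold. Ebf1 was also higher in MPP4 in each of the 4 WT mice, by 1.89-fold to 29.5-fold, and its groups did not overlap (1.76 ± 0.66, FDR 0.164). With the mouse as a block, since the populations came from the same animals, Ebf1 passed (2.01 ± 0.60, FDR 0.0591). Groups in which all MPP4 libraries were higher were thus found for 2 of the 10 genes, against 5.73% of all genes. Vpreb1 was 2.25-fold higher in MPP4 but with overlapping groups (1.17 ± 0.41, FDR 0.13), and Vpreb2 rested on 8 counts in all MPP3 WT libraries together. Pax5, Pou2af1, Igll1, Vpreb3, Cd79a and Cd79b overlapped between the populations in WT, with log2 fold changes between -0.40 and 1.02.

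In the libraries labelled KO, edgeR called 3 of the 10 genes between MPP4 and MPP3, all higher in MPP4, where 8.79% of all genes were called. For Ebf1 the level rose to 20.9 ± 3.79 CPM in MPP4 from 0.80 ± 0.988 CPM in MPP3 (4.69 ± 0.73 on the log2 scale, FDR 0.000488), and it was higher in MPP4 in each of the 4 KO mice by 7.92-fold to 125-fold, with 7.92-fold in mouse KO3. Without mouse KO3 the value was 6.08 ± 0.75 (FDR 0.000178). Blnk rose to 29.6 ± 2.86 CPM from 2.62 ± 0.88 CPM (3.5 ± 0.23, FDR 4.39e-08). Vpreb2 rose from no counts to 37 counts, at least 3.44-fold (FDR 0.0284), a call that was lost without mouse KO3 (FDR 0.119). All MPP4 libraries lay above all MPP3 libraries for these 3 genes, against 5.49% of all genes. Cd79b differed by 0.20 ± 0.09 (FDR 0.219), and with the mouse as a block by 0.21 ± 0.06 (FDR 0.0528), which passed. Vpreb3 was lower in MPP4 in each of the 4 KO mice, without passing the threshold (-1.73 ± 0.74, FDR 0.224), and Igll1 was also lower in each of the 4.

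**Figure D3:**
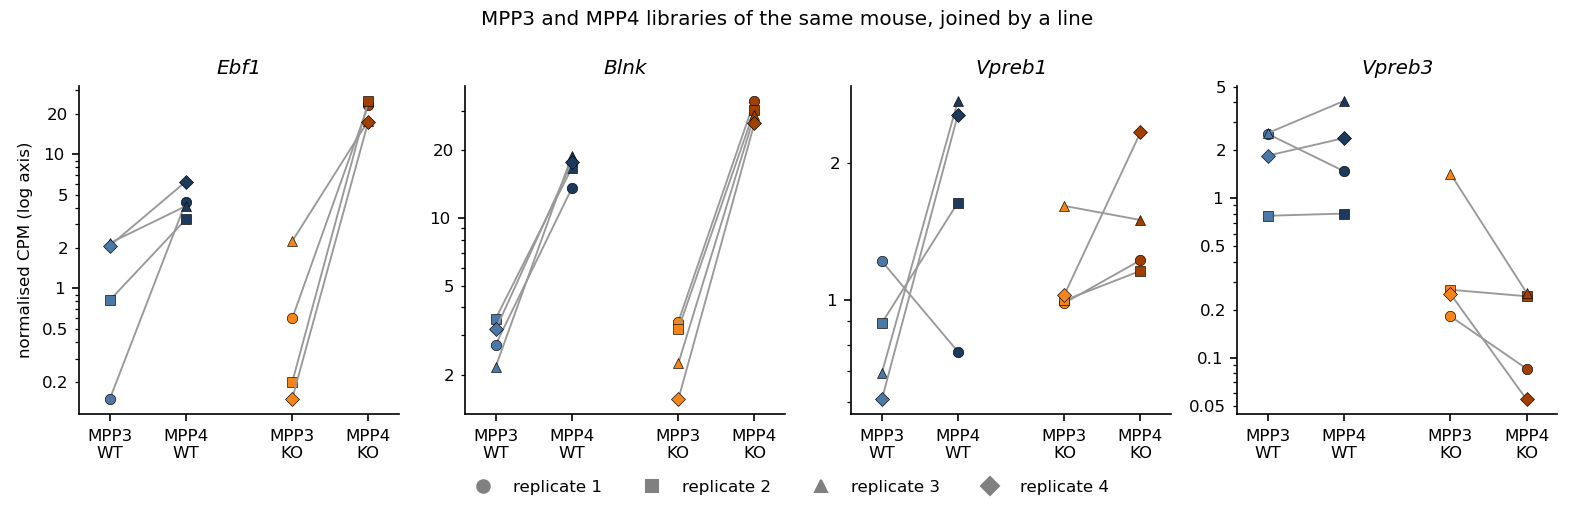
Normalised CPM (vertical log axes) of 4 genes in the MPP3 and MPP4 libraries of each mouse, joined by a line, for WT and KO labels. The lines of Ebf1 and Blnk rise in all 8 mice, those of Vpreb3 fall in all 4 KO mice, and those of Vpreb1 rise in 3 of 4 mice of each genotype.

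Whether the effect of the genotype differed between the populations was tested as an interaction. EdgeR called no gene (0% of 22281). An unadjusted p-value under 0.05 was seen for 885 genes, and DESeq2 called 15 genes, none of them among the 10. Of the 10 genes, 2 had an unadjusted p-value under 0.05. With the mouse as a block, since each mouse gave both libraries, edgeR called 2 genes, none of them among the 10, and 5 of the 10 (Ebf1, Pax5, Igll1, Vpreb3 and Blnk) had an unadjusted p-value under 0.05, against 987 of all genes. For Ebf1 the effect was 2.93 ± 0.93 log2 units higher in MPP4 than in MPP3 (edgeR FDR 1), and 4.33 ± 0.87 without mouse KO3 (FDR 0.893). For Blnk it was 0.98 ± 0.30 log2 units higher (FDR 1). A difference between the populations in the genes that were lower in KO was not shown by the test.

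Levels per kilobase of exon allow the genes to be set in order. In MPP4 WT, Cd79b stood first with 55.2 ± 3.54 CPM per kilobase. Blnk (2.80 ± 0.39), Cd79a (2.67 ± 1.85), Vpreb3 (2.54 ± 1.65), Vpreb1 (1.60 ± 0.75), Igll1 (0.894 ± 0.899), Vpreb2 (0.676 ± 0.472), Ebf1 (0.462 ± 0.129), Pou2af1 (0.288 ± 0.122) and Pax5 (0.137 ± 0.125) followed. Beyond the step from Cd79b to Blnk, the ranges of all neighbours in that order met. In MPP4 KO, Cd79b (58.4 ± 4.81) was followed by Blnk (4.94 ± 0.48), Ebf1 (2.15 ± 0.39) and Vpreb1 (1.29 ± 0.45), and the range of Blnk met neither neighbour. In MPP3 WT, Vpreb3 (2.24 ± 0.97) and Cd79a (1.82 ± 0.49) came after Cd79b, and in MPP3 KO, Vpreb1 (0.964 ± 0.252) did. Every MPP4 WT library had at least 9 of the 10 genes above 0 counts, and the MPP4 KO libraries had between 6 and 9.

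Pearson's r of log2 CPM over the 16 libraries is given as a description, since all points share the libraries and their depth. Cd79a and Vpreb3 were nearest to each other (r = 0.91), followed by Pax5 and Vpreb3 (0.902), Pou2af1 and Cd79a (0.887), Ebf1 and Blnk (0.866), and Igll1 with Cd79a (0.854) and Vpreb3 (0.851). The r of Ebf1 was -0.238 with Vpreb3, -0.211 with Cd79a and -0.116 with Pou2af1. Among 17122 genes with a mean of at least 5 counts, Blnk was most like Emp1 (0.978), Dntt (0.976) and Cmah (0.973), and Ebf1 was most like Myl4 (0.919), Tapt1 (0.915) and Tmem268 (0.894). Dntt encodes the terminal transferase of immunoglobulin rearrangement. Vpreb2 was most like Nedd4l (0.902), Gpsm1 (0.886) and Tfeb (0.878), Vpreb1 like Wnt10b (0.816), Cnot8 (0.803) and Gm16364 (0.779), and Cd79b like Inka1 (0.872), Rala (0.868) and Ino80e (0.811). Outside the 10 genes, 4930597A21Rik was near Pou2af1 (0.899) and Pax5 (0.835), Ciz1 near Pou2af1 (0.886), Rasa3 near Igll1 (0.826) and Gm30211 near Pax5 (0.82).

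Lists of other genes of the pathway were read beside the 10. Of 14 other B lineage transcription factors, edgeR called none between KO and WT in either population, and the median log2 fold changes were 0.03 in MPP3 and 0.02 in MPP4. First by p-value were Irf8 in both populations (0.90 ± 0.22 in MPP3, FDR 0.259, and 0.76 ± 0.21 in MPP4, FDR 0.305), Irf4 in MPP3, with 2, 7, 15 and 0 counts in WT and none in KO, and Ikzf3 in MPP4, with 26, 2, 3 and 0 counts in WT and none in KO. Between MPP4 and MPP3 in WT, 4 of the 14 were called (against 7.18% of all genes), all higher in MPP4, with Pou2f2 (1.23 ± 0.13, FDR 1.06e-05) and Bcl11a (0.66 ± 0.08, FDR 5.21e-05) first. Pou2f2 encodes OCT2, the POU factor that POU2AF1 assists.

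Of 14 surface and recombination genes of B progenitors, none was called between KO and WT, with medians of -0.23 in MPP3 and 0.26 in MPP4. Fcrla had 56, 59, 52 and 18 counts in WT libraries of MPP3 against 0, 0, 12 and 0 in KO libraries, with the 12 again in mouse KO3 (-4.06 ± 1.25, edgeR FDR 0.441). Arpp21 lay lower in all MPP3 KO than in all MPP3 WT libraries (-1.52 ± 0.28, FDR 0.118), and higher in all MPP4 KO than in all MPP4 WT libraries (0.37 ± 0.25, FDR 0.663). In MPP4, Sox4 did not pass the threshold (0.67 ± 0.29, FDR 0.485). In WT, 6 of the 14 were called higher in MPP4 than in MPP3 and none lower, where 7.18% of all genes were called in either direction, with Dntt (4.79 ± 0.23, FDR 9.61e-10) and Arpp21 (3.27 ± 0.27, FDR 8.12e-07) first.

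Of 19 genes of pre-BCR signalling, none was called between KO and WT, with medians of -0.07 in MPP3 and -0.12 in MPP4. The smallest p-values were those of Ighm, the mu heavy chain (-1.37 ± 0.31, edgeR FDR 0.208), and Pik3cd (-0.41 ± 0.13, FDR 0.431) in MPP3, and of Plcg2 (-0.26 ± 0.07, FDR 0.291) and Inpp5d (-0.30 ± 0.10, FDR 0.372) in MPP4. Between MPP4 and MPP3 in WT, 5 of the 19 were called, all higher in MPP4, against 7.18% of all genes called. Pik3ap1 (0.80 ± 0.11, FDR 0.000241), which encodes the adaptor BCAP, had the smallest p-value.

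The marker lists of other cells were read because B cells and plasma cells express several of the 10 genes. The cells had been depleted with antibodies that included B220, a marker of B cells, and gated as lineage-negative Sca1+ Kit+ (LSK) cells, steps aimed at mature B cells among others. How far these steps removed B cells or plasma cells was not tested. Of 10 mature B cell markers, none was called between KO and WT, with medians of 0.11 in MPP3 and 0.00 in MPP4. The defining marker Ms4a1 (CD20) had 12, 0, 15 and 0 counts in the WT libraries of MPP3 and 0, 0, 7 and 0 in the KO libraries, while in MPP4 WT libraries held 26, 0, 16 and 0 and KO libraries 0, 0, 2 and 4, and Cd22 had at most 29 counts in any library. The summed level of the list was 105 to 142 CPM in MPP3 WT, 97.6 to 130 in MPP3 KO, 161 to 201 in MPP4 WT and 166 to 184 in MPP4 KO. Most of it came from Cd72, with a mean of 104 CPM in MPP3 WT and 126 in MPP4 WT, followed by Tnfrsf13c with 14.2 and 32.9, so it says little of the other 8 markers. Cxcr5 was higher in all KO than in all WT libraries of both populations (1.42 ± 0.56, edgeR FDR 0.541, in MPP3 and 2.79 ± 0.62, FDR 0.191, in MPP4), while Fcmr in MPP3 rested on 18 counts in 1 WT library and Bank1 in MPP4 differed by -0.73 ± 0.37 (FDR 0.558). In WT, 3 of the 10 were called higher in MPP4 and 1 lower (7.18% of all genes were called), with Ighd (5.07 ± 0.63, FDR 6.46e-05) and Bank1 (3.18 ± 0.41, FDR 7.46e-05) first.

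Plasma cell markers were read next. Of 13 genes, 10 had lower levels in MPP3 KO, 5 of them with groups that did not overlap (against 1.62% of all genes), and none was called. In MPP4, 10 of the 12 genes above the counting limit had lower levels in KO. Groups did not overlap for 3 of them (Igkc, Iglc1 and Derl3), against 3.05% of all genes, and none was called. Jchain had 4422, 1929, 1516 and 1363 counts in WT libraries of MPP3 against 0, 8, 778 and 3 in KO libraries (-3.70 ± 1.35, edgeR FDR 0.512), and Mzb1 had 139, 39, 80 and 38 counts in WT and 0, 18, 21 and 1 in KO (-2.86 ± 0.80, FDR 0.345). Mouse KO3 was the highest of the KO libraries for Jchain (20.9 CPM), while for Mzb1 the highest was mouse KO2 (0.600 CPM). Igkc, the kappa light chain, had 12659, 9154, 3443 and 2674 counts in WT libraries of MPP3, and among the KO libraries only mouse KO3 had any (2306). In MPP4, Igkc had 58, 514, 139 and 46 counts in WT and 0, 0, 6 and 0 in KO (-6.83 ± 2.68, FDR 0.452), and Iglc2 had at most 8 counts in any MPP4 library, against 44 to 53 in the MPP3 WT libraries. The summed level was 289 to 785 CPM in MPP3 WT, 179 to 446 in MPP3 KO, 215 to 374 in MPP4 WT and 187 to 380 in MPP4 KO. Most of it outside MPP3 WT came from Xbp1, with means of 260 CPM in MPP3 KO, 188 in MPP4 WT and 213 in MPP4 KO, and in MPP4 from Sdc1, with 95.7 CPM in WT and 76.7 in KO. In MPP3 the sums of WT and KO overlapped while the mean of Igkc was 220 CPM in WT and 15.5 in KO and that of Jchain 69.2 and 5.30, so the sum does not measure plasma cell content. The median log2 fold change was -0.86 in MPP3 and -0.49 in MPP4 over the 12 genes above the counting limit. Jchain and Igkc fell from MPP3 to MPP4 in WT (Jchain -5.16 ± 1.47, FDR 0.0504, and Igkc -5.34 ± 1.58, FDR 0.064). Iglc2 (-3.52 ± 1.26, FDR 0.157) and Iglc1 (-4.08 ± 1.93, FDR 0.323) were lower without passing. Sdc1, the surface marker of plasma cells, rose from MPP3 to MPP4 (3.72 ± 0.35, FDR 3.7e-06). Of the 12 genes above the counting limit in that comparison, 10 were lower and 2 higher in MPP4. The part of plasma cell transcripts in the levels of the 10 genes was not tested.

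**Figure D4:**
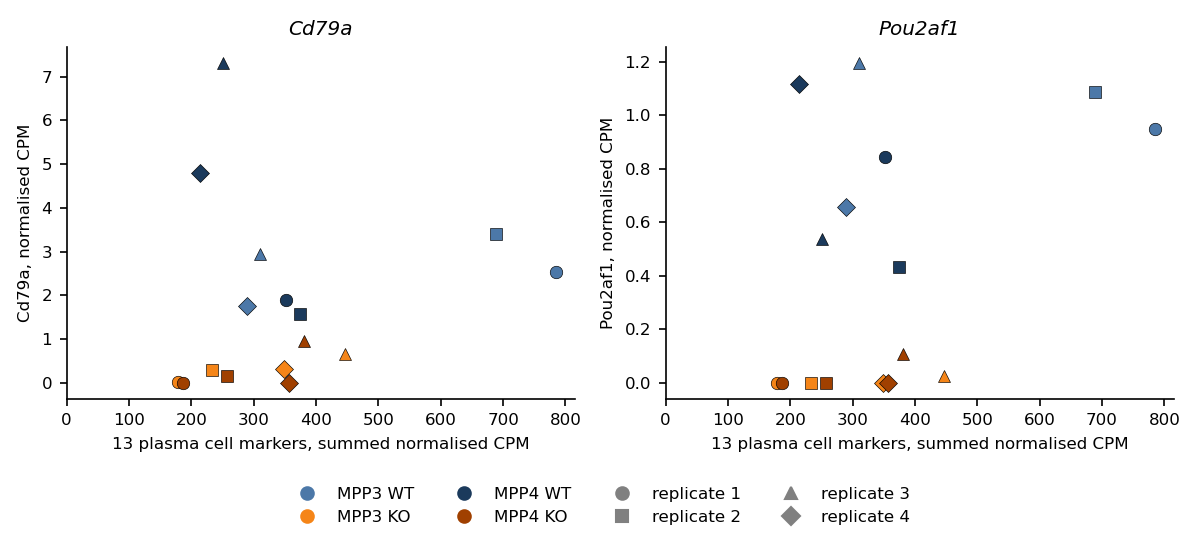
Normalised CPM of Cd79a (left) and Pou2af1 (right) against the summed normalised CPM of 13 plasma cell markers in the 16 libraries, colored by group and with the symbol giving the replicate number. KO libraries lie at or below 0.95 CPM of Cd79a and 0.11 CPM of Pou2af1, and MPP4 WT libraries lie above them. Xbp1 and Sdc1 make up most of the sum outside MPP3 WT, so libraries with like sums need not hold like amounts of Jchain or Igkc.

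The remaining lists served as checks of the sort. Flt3, which separates the gates, rose 2.14 ± 0.10 log2 units from MPP3 to MPP4 in WT (edgeR FDR 9.61e-10), and Kit was lower in MPP4 (-0.50 ± 0.06, FDR 8.21e-05). Kit was the only gene of all lists called between KO and WT, lower in MPP4 KO (-0.43 ± 0.06, FDR 0.055), and it was also lower in all MPP3 KO than in all MPP3 WT libraries without passing (-0.21 ± 0.06, FDR 0.452). Flt3 was lower in all MPP4 KO than in all MPP4 WT libraries, likewise without passing (-0.29 ± 0.10, FDR 0.368). In MPP4, 3 of the 6 sort markers (Kit, Flt3 and Cd34) had all KO below all WT libraries, against 3.05% of all genes. Ly6a had all KO above all WT libraries there, against 1.86% of all genes. In MPP3, Kit was the only 1 of the 6 with groups apart, against 1.62% of all genes lower. The part of these differences in the results for the 10 genes was not tested. Ly6a had 0.48 ± 0.13 in MPP3 and 0.43 ± 0.13 in MPP4 (FDR 0.301 and 0.321). All 10 myeloid progenitor markers had higher levels in MPP3 KO and 8 of 10 in MPP4 KO, none called, with Ctsg (0.88 ± 0.19, FDR 0.208) and Prtn3 (0.54 ± 0.13, FDR 0.283) first in MPP3 and Csf1r (0.97 ± 0.20, FDR 0.182) and Ctsg (0.92 ± 0.19, FDR 0.182) in MPP4. Ms4a3 (-4.80 ± 0.51, FDR 1.06e-05) and Fcgr3 (-3.25 ± 0.37, FDR 2.21e-05) were lower in MPP4 than in MPP3 in WT. The summed level of the list was 5698 to 9586 CPM in MPP3 WT and 6783 to 16040 in MPP3 KO, and 2170 to 2878 in MPP4 WT and 2507 to 3778 in MPP4 KO. For the T and NK cell list the sums were 421 to 584 CPM in MPP3 WT, 517 to 652 in MPP3 KO, 240 to 338 in MPP4 WT and 260 to 428 in MPP4 KO, most of it from Nkg7, which was not called in MPP3 (0.18 ± 0.16) or in MPP4 (0.15 ± 0.16). In MPP3, 10 of the 11 had higher and 1 lower levels in KO, none called, with a median of 0.64, and in MPP4 the median was 0.05. Klrb1c, the lower one in MPP3, differed by -0.37 ± 0.29 there, and Gzma had 2 counts in all MPP4 libraries together and 0 to 33 in MPP3 libraries. Nkg7 (-0.85 ± 0.16, FDR 0.00327) and Gzma (FDR 0.0345) were the first of this list between MPP4 and MPP3 in WT, both lower in MPP4. Of the plasmacytoid dendritic cell list, Spib had 54, 47, 109 and 59 counts in WT libraries of MPP3 against 1, 0, 30 and 0 in KO libraries (-3.15 ± 1.26, FDR 0.544), and Ly6c2 differed by 1.18 ± 0.40 in MPP3 (FDR 0.481). In MPP4 KO, Cox6a2 lay higher (0.92 ± 0.31, FDR 0.384), as did the mean of Bst2 (0.32 ± 0.11, FDR 0.392). Of the 9 tested, 5 had higher and 4 lower levels in MPP4 KO, with 2 in each direction in groups that did not overlap, against 1.86% of all genes higher and 3.05% lower. Cox6a2 (4.13 ± 0.36, FDR 1.36e-06) and Tcf4 (0.96 ± 0.09, FDR 1.68e-06) rose from MPP3 to MPP4 in WT. The sums of that list were 402 to 499, 411 to 614, 601 to 680 and 641 to 730 CPM in MPP3 WT, MPP3 KO, MPP4 WT and MPP4 KO. Stromal and endothelial markers summed to 76.9 to 107, 60.0 to 83.2, 68.7 to 82.8 and 59.0 to 70.4 CPM in the same groups, with at most 12 counts of the endothelial gene Cdh5 in any library. Their smallest p-values were those of Pdgfrb (-0.54 ± 0.15, edgeR FDR 0.342) and Adipoq (2.5 ± 1.52, FDR 0.692) in MPP3, and of Emcn (-0.35 ± 0.13, FDR 0.42) and Kdr (-1.27 ± 0.91, FDR 0.696) in MPP4. Between MPP4 and MPP3 in WT, Pdgfrb (-0.38 ± 0.15, FDR 0.188) and Col1a2 (-2.88 ± 1.48, FDR 0.363) came first. The part of any of these cells in the levels of the 10 genes was not tested.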

How the data were processed

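RNA was sequenced from MPP3 and MPP4 cells of 8 mice (16 libraries, 4 groups of 4). According to the study's methods and the submitters' processing notes, the authors mapped trimmed paired-end reads on mm10 (STAR 2.7.3a) and obtained gene counts from featureCounts 2.0.0. The authors deposited raw read counts per gene, 1 table per population, with no normalisation. The annotation release and the use of strand are not given in the sources used here. A further deposited table, of the counts after filtering and size-factor scaling, was not used. Symbols and positions came from GENCODE vM21 (GRCm38), which matched 47310 of 47937 identifiers, and promoter sequences from RefSeq (GRCm38.p6).

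The test was the quasi-likelihood F-test of edgeR 4.0.16 under R 4.3.3 (TMM, legacy deviances), with all 16 libraries in 1 fit, 1 mean per group and no covariate. Genes with at least 10 counts in total entered (22281). FDR values (Benjamini-Hochberg) were taken over all genes of a contrast, with 0.1 as the threshold of a call. The error beside a log2 fold change is its standard error, and beside a CPM its SD. The scripts were tested on simulated data. Totals were 24823708 to 48703193 counts. Replicates differed by far more than sampling noise (chi-square 25.6 to 86.8 per gene), and all were kept. Where p-values are given, they measure the spread between mice labelled as replicates. The MPP3 and MPP4 libraries of a mouse deviated together (r between 0.274 and 0.528 over genes), so the mouse was used as a block in an alternative fit. Alternatives were other normalisations, tests and filters, blocks, sex and age as terms, fewer libraries, and each library left out in turn. The fit without mouse KO3 was chosen after seeing the data, as were the bounds with 1 library left out and the Cd79a site among the motifs.

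The 10 genes, the lists and the tests were chosen with earlier results of these data known. Named are all 10 genes, the 2 genes of each list with the smallest p-values in each KO against WT comparison and in MPP4 against MPP3 in WT, any listed gene called between KO and WT, and the genes most like each of the 10 in pattern, of the top 3 by Pearson's r. Some genes that this rule names are not reported here. Other genes (Ms4a1, Cd22, Cdh5 and Nkg7 beside sums) were named after their values were seen.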

Additional observations from a re-analysis of the deposited data

Results flagged for a closer look

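Within each group of 4 libraries, the gap between an end library and its nearest neighbour was set against the whole range of the group, for 38 combinations of gene and group with any spread. In 6 of them the highest library stood apart by Dixon's criterion (95% level), where chance flags about 1 group in 20 of continuous values, a rate that does not hold for counts near 0. All 6 were libraries of mouse KO3. In MPP3 KO replicate 3 they were Pax5 at 0.241 CPM (9 counts), Pou2af1 at 0.0268 CPM (1 count), Vpreb1 at 1.61 CPM (60 counts) and Vpreb3 at 1.42 CPM (53 counts). In MPP4 KO replicate 3 they were Pou2af1 at 0.110 CPM (3 counts) and Cd79a at 0.95 CPM (26 counts). For Pax5 and for Pou2af1 in both groups the other libraries were all at 0, so that any count in 1 library would stand apart, and those values say no more than that only mouse KO3 had counts. No gene of the 10 had an effect of the genotype that differed between MPP3 and MPP4 after adjustment over all genes.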

How the results depend on the processing

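The number of the 10 genes called between KO and WT in MPP3 was 1, and it was 2 with the DESeq2 Wald test. It was 0 with age as a term, with only the 8 libraries compared, without legacy deviances, with the replicate number as a block, and with the filter on a mean above 100 counts, under which Pou2af1 was not tested. In MPP4 it was 0, and 6 with DESeq2, 4 without legacy deviances (of 9 genes called in all) and 1 in the fit of 8 libraries (of 8). Between MPP4 and MPP3 in WT it was 1, and 2 with DESeq2, with filterByExpr, with the mouse as a block and without mouse KO3, and 4 without legacy deviances. In KO it was 3, between 2 and 4 in all alternatives. When each library was left out in turn, the counts ranged from 0 to 1 in MPP3, 0 to 1 in MPP4, 1 to 3 in WT and 3 to 4 in KO. Leaving out WT replicate 2 or any of KO replicates 2, 3 and 4 of MPP3 ended the call there (FDR 0.117 to 0.325), and Pou2af1 was called in MPP4 without MPP4 KO replicate 3 (FDR 0.0676). The interaction called none of the 10 in any setting. Over all genes, DESeq2 called 214 in place of 6 (MPP3) and 370 in place of 2 (MPP4), and the mouse block moved the calls from 1599 to 2546 in WT and from 1959 to 3015 in KO. The mouse block changed no call of the 10 genes other than those of Ebf1 in WT and Cd79b in KO. Same-numbered WT and KO mice did not deviate together (r between -0.439 and 0.061, and 0 of 16 libraries nearest to their own number), and that block moved the calls over all genes from 6 to 1 and from 2 to 8.

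Small effects changed sign when 1 library was left out. The log2 fold change then ranged from -0.33 to 0.031 for Blnk and from -0.049 to 0.06 for Cd79b between KO and WT in MPP3, from -2.52 to 0.27 for Cd79a and from -1.60 to 2.99 for Pou2af1 between MPP4 and MPP3 in KO, and from -0.31 to 0.45 for Vpreb3 in WT. The causes were not tested. Genes near 3 counts per library, such as Vpreb2 in MPP3, lie at the limit of the depth.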
